A study of Mus musculus with 2 samples.

Results

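The genes described here are B2m and 9 other genes of class I antigen processing, namely Tap1, Tap2, Tapbp, Psmb8, Psmb9, Psmb10, Nlrc5, Erap1 and Calr. They were chosen by symbol among the genes that have at least 1 probeset assigned to them alone, and all 10 were measured, out of 19938 genes on the array. They held 28 of the 35556 probesets of the deposited table, with 19 for Nlrc5 and 1 for each of the other 9 genes. The choice was made with the difference between the 2 arrays known, so the differences below are a description and carry no test.

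The cells were i-OSKM-ESC, mouse embryonic stem cells made from the KH2 line (strain label 129). They carry transgenes for c-Myc, Klf4, Oct4 and a Sox2 with an epitope tag, all under doxycycline control. KH2 cells express the doxycycline-dependent activator from the Rosa26 locus, and both arrays hold RNA of cells with the same engineering. One array held RNA of cells grown on gelatin and given doxycycline at 4 µg/mL for 24 hours. The other held RNA of cells refed at the same time without the drug. Each group has 1 array, labelled replicate 1, so nothing below carries a p-value or an error between replicates, and precision is limited by having 2 arrays. No culture of parental KH2 cells with doxycycline was analysed here, so the drug and the factors cannot be told apart as the source of a difference. The labels do not say whether the line is 1 clone.

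Class I molecules show fragments of a cell's own proteins to cytotoxic T cells and inhibit natural killer cells. Proteasomes cut proteins into peptides, the Tap1-Tap2 transporter moves the peptides into the endoplasmic reticulum, and Erap1 trims them there. A loading complex that contains tapasin (Tapbp) and calreticulin (Calr) places them on a heavy chain paired with beta-2 microglobulin, the product of B2m. Interferon-gamma induces most of these genes, in part through the transactivator Nlrc5, and embryonic stem cells are known for low levels of class I molecules at their surface.

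B2m had the largest difference of the 10 genes, 1.85-fold higher in the doxycycline array, and Tapbp and Tap2 followed at 1.42-fold and 1.31-fold. No gene of the 10 reached 2-fold in either direction. Differences of Tap1, Psmb10 and Calr were at most 0.12 on the log2 scale in size. Of the interferon receptor and signalling genes 10 of 13 were at lower values with doxycycline, as were all 7 measured class II genes, 5 of which lay below the expression filter. None of these was called at 2-fold, where 1.69% of all genes above the filter were. Over all genes 51.6% of differences were positive, and over genes above the filter the median difference was -0.03. Other lists leaned either way, with 7 of 11 housekeeping genes and 9 of 14 constitutive proteasome core genes negative. Of the endoplasmic reticulum folding and loading genes, 10 of 13 were positive. The 12 class I heavy chains that could be measured differed by at most 0.27 in size, but 11 of them lay below the filter. H2-K1 and H2-D1, which encode the classical chains, had no probeset of their own.

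The letters of 4 stretches upstream of starts are printed because the results turn on these genes: B2m and Tapbp have the largest differences, Tap1 and Psmb9 share 1 stretch, and Calr is the endoplasmic reticulum chaperone among the members. The sequences are from RefSeq, build GRCm38.p6, which is the genome of C57BL/6J and not of strain 129. They stop at the base before the annotated start. Capitals mark matches, on either strand, to the interferon-stimulated response element (GAAA, any 2 bases, then GAAA), the CCAAT box (CCAAT), the GC box bound by Sp and Klf factors (GGGCGG) and the E-box bound by Myc and Max (CACGTG). The B2m stretch is chr2:122147437-122147686 on the plus strand and the Tapbp stretch chr17:33919228-33919477 on the plus strand. The stretch between the starts of Psmb9 and Tap1, which point away from each other, is chr17:34187331-34187555, 225 bases printed on the plus strand, the strand of Tap1. The Calr stretch is chr8:84846932-84847181 on the minus strand.
B2m: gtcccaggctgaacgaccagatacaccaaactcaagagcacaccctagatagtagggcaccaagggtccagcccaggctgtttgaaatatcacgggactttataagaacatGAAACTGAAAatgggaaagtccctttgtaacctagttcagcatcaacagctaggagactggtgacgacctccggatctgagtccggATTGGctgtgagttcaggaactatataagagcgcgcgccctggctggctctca
Tap1 and Psmb9: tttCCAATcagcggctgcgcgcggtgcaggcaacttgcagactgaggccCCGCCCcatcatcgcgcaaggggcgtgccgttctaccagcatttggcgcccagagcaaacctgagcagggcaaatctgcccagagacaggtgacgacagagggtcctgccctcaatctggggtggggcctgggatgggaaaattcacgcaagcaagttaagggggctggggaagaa
Tapbp: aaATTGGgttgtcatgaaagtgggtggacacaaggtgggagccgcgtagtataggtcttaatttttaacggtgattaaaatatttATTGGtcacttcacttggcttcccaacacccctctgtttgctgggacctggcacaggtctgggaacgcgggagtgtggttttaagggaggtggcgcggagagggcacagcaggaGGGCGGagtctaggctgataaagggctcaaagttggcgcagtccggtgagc
Calr: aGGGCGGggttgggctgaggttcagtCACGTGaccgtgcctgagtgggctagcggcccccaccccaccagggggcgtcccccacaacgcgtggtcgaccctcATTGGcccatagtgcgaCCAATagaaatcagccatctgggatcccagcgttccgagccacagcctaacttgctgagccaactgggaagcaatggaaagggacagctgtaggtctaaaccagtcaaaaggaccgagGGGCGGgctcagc

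Motifs were searched over windows of 250 bases before and 50 after each start, which the RefSeq table holds for 8 of the 10 genes (Tap2 and Nlrc5 have none). The interferon-stimulated response element was found in 2 of the 8, B2m and Erap1, against 3.44% of all 32851 windows and 15 of the 21 interferon-stimulated genes with a window. In B2m it begins 139 bases before the start, and in Erap1 it begins 4 bases before the start and runs across it. A match to the interferon-gamma activated site (TTCNNNGAA) was found in Psmb8 alone among the 8, against 8.3% of all windows. The CCAAT box was present in 5 of 8 (B2m, Calr, Psmb9, Tap1 and Tapbp), against 37.4% of windows. The windows of Tap1 and Psmb9 overlap by 275 bases, so their CCAAT boxes and GC boxes are the same letters counted for both.

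Motifs of the induced factors were searched in the same windows. The octamer (ATGCAAAT), the core of Oct4 binding, and the Sox motif (CATTGTT) were in 0 of 8 windows, against 1.74% and 3.78% of all windows. The E-box was in 3 of 8, Calr, Erap1 and Psmb10, against 7.15%. The GC box was in 5 of 8, Calr, Erap1, Psmb9, Tap1 and Tapbp, against 35.7%, and not in B2m. The cyclic AMP element (TGACGTCA), which is not a motif of the induced factors, was in 0 of 8, against 1.79%. A match is a description of letters, and a missing match says only that these letters are not in this window.

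B2m encodes the light chain that every classical class I molecule needs to reach the surface. Its RMA value, a background-corrected and array-equalised signal on the log2 scale, was 10.14 in the doxycycline array and 9.25 in the untreated array. The difference was 0.89, or 1.85-fold. Among the 997 genes in the same 1 of 20 bins of mean level, 6 had a larger positive difference. The bin's median difference was -0.04 and its robust SD (scaled from the median absolute deviation) was 0.21. This spread is across genes and holds any response of the cells, so it is not an error between cultures. B2m rests on 1 probeset. For other members, each in its own bin, genes with a larger difference numbered 39 for Tapbp, 117 for Tap2 and 143 for Psmb9. They numbered 170 for Psmb8, 255 for Calr, 367 for Nlrc5, 456 for Tap1, 505 for Psmb10 and 890 for Erap1.

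The transporter subunits differed in size. Tap2, which with Tap1 forms the peptide channel, was at 6.77 in the doxycycline array and 6.38 in the untreated array, a difference of 0.39 (1.31-fold). Tap1 was at 6.80 with doxycycline and 6.75 without it, a difference of 0.05. For scale, 492 genes had 2 probesets above the expression filter, and inside such a gene the differences of single probesets had an SD of 0.17. The 2 probesets of a gene can read different parts of its transcripts, so that SD is not purely technical. It holds no spread between replicate cultures. The filter asks that the higher of both values reach 6.48, the median of the table, and both subunits passed it, Tap2 only through its value in the doxycycline array.

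The loading complex and trimming genes also went different ways. Tapbp, the bridge between the transporter and the heavy chain, was at 7.89 in the doxycycline array and 7.38 in the untreated array, a difference of 0.51 (1.42-fold). Of the 997 genes in its bin, 39 had a larger positive difference. Calr, a lectin chaperone that holds heavy chains during loading, was at 11.79 with doxycycline and 11.67 without it, a difference of 0.12. Erap1, the aminopeptidase that trims peptides to fit the groove, was at 5.12 with doxycycline and 5.32 without it, a difference of -0.20, and it lay below the filter in both arrays. Below the filter a level cannot be told from background, since the table gives no detection call. The filter is the median of the table and no background was estimated, so passing it does not show detection.

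The immunoproteasome subunits replace constitutive catalytic subunits and alter which peptides are cut. Psmb8 was at 5.71 in the doxycycline array and 5.39 in the untreated array (difference 0.32, below the filter). Psmb9 was at 7.81 with doxycycline and 7.57 without it (difference 0.24). Psmb10 was at 8.47 with doxycycline and 8.54 without it, a difference of -0.07 that turned to 0.0027 after quantile normalization and 0.0071 after removal of the trend with level. Psmb5, Psmb6 and Psmb7, the constitutive subunits that Psmb8, Psmb9 and Psmb10 replace, had differences of -0.04, -0.46 and 0.0047. Psmb6 was at 10.36 in the doxycycline array and 10.82 in the untreated array, 1.38-fold lower. The difference of each immunoproteasome subunit minus that of its partner was thus 0.36 for Psmb8, 0.70 for Psmb9 and -0.07 for Psmb10.

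**Figure D1:**
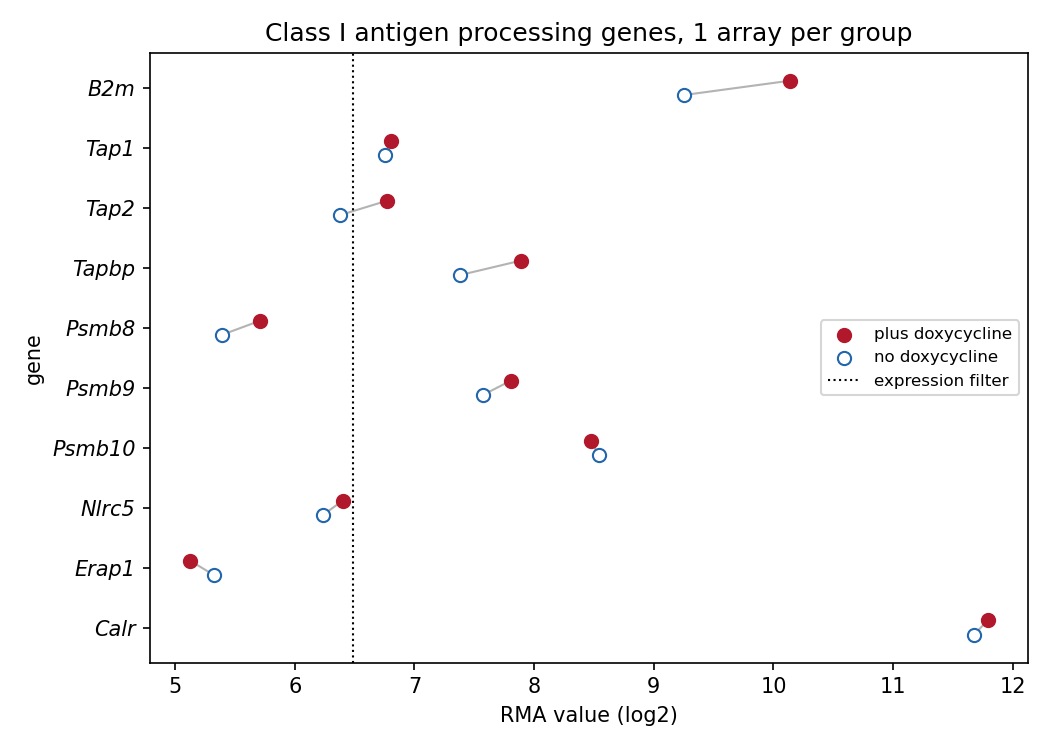
RMA values (log2, horizontal axis) of the 10 class I antigen processing genes, with filled points for the plus doxycycline array, open points for the no doxycycline array (1 array each) and the expression filter of 6.48 as a dotted line. B2m has the widest gap, 10.14 with doxycycline against 9.25 without it, and Psmb8, Nlrc5 and Erap1 lie left of the filter in both arrays.

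Nlrc5 encodes the transactivator of class I, B2m, Tap1 and Psmb9 genes in mouse lymphocytes and in interferon-treated cells. The mean over its 19 probesets was 6.40 in the doxycycline array and 6.24 in the untreated array, a difference of 0.16, below the filter. The probesets did not act as 1 measurement. Their values ran from 4.57 to 9.50 (median 6.28) in the doxycycline array and from 4.24 to 9.29 (median 6.29) in the untreated array. Their differences ran from -0.35 to 0.50 with a median of 0.19 and an SD of 0.23, and 15 were positive and 4 negative. None of the 19 reached 2-fold, and 7 of them passed the filter when taken singly. The brightest one was at 9.50 in the doxycycline array and 9.29 in the untreated array, a difference of 0.20.

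**Figure D2:**
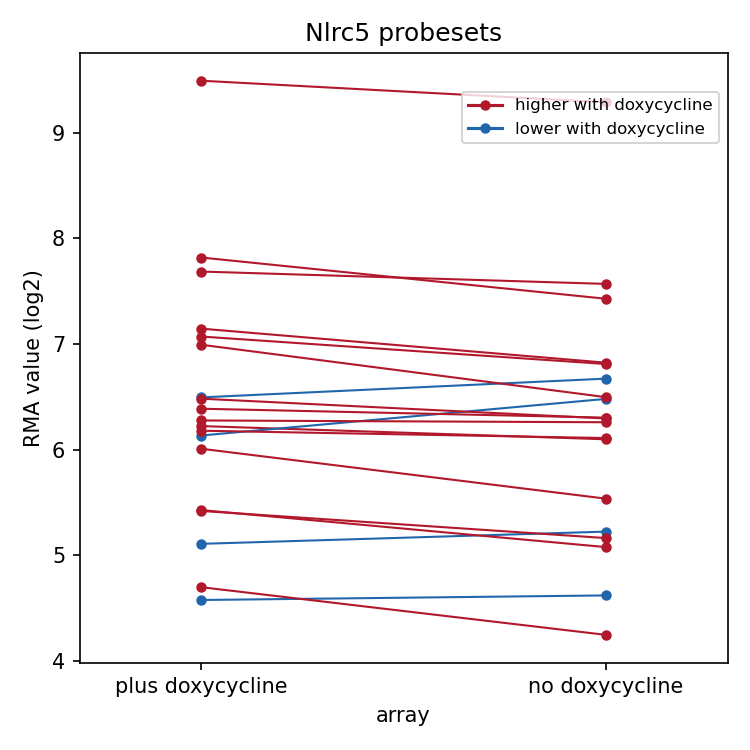
RMA values (log2, vertical axis) of the 19 Nlrc5 probesets in the plus doxycycline array (left) and the no doxycycline array (right), 1 line per probeset, red where the left value is higher and blue where it is lower. 15 lines slope down to the right and 4 slope up, and the probesets are spread over several log2 units in each array.

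Over the whole table, 1.69% of the 11191 genes above the filter differed at least 2-fold between the arrays, 0.92% higher and 0.768% lower with doxycycline. Of the 10 class I antigen processing genes, 7 passed the filter and 0 were called in either direction. At 1.5-fold, B2m alone was called higher and 0 were called lower, where 3.24% of genes were called higher and 3.8% lower. Because the genes were chosen with this contrast known, nothing is read from these shares. The 2-fold shares also stand beside each count of called genes in the lists below. Counting all 10 without a filter, 8 differences were positive and 2 (Psmb10 and Erap1) negative, and with quantile normalization or the trend removed 9 were positive. Over all genes, 51.6% of differences were positive. The median difference of the 10 was 0.20, against 0.0083 over all 19938 genes.

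**Figure D3:**
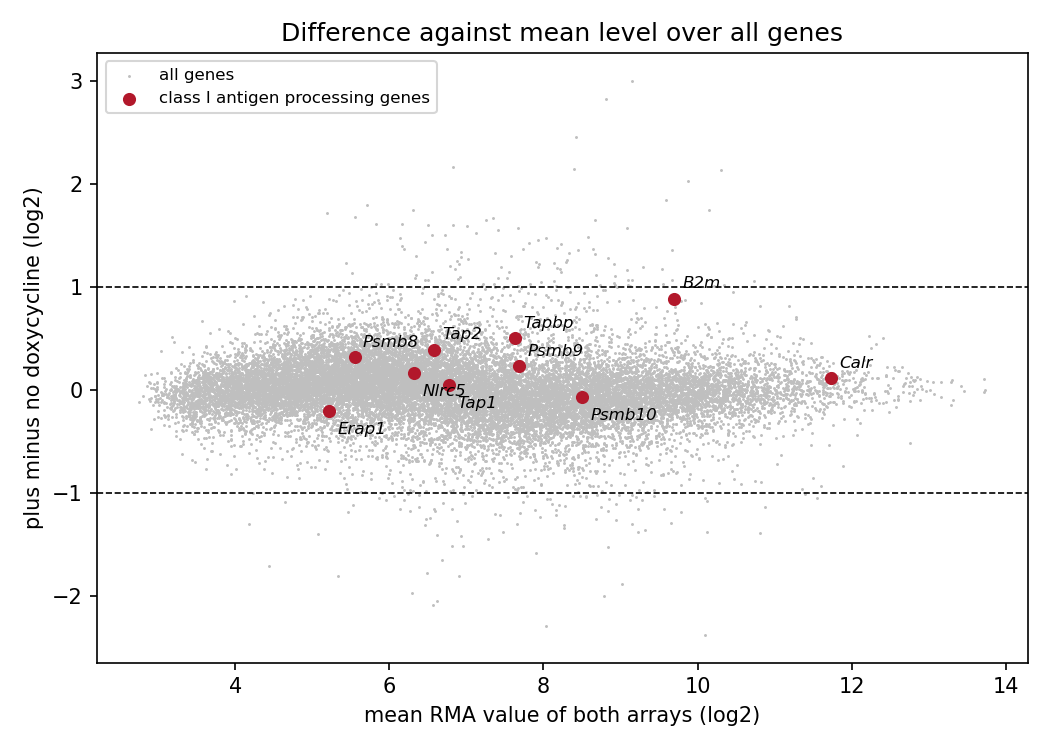
Difference of log2 RMA values, plus minus no doxycycline (vertical axis), against the mean of both arrays (horizontal axis) for all 19938 genes (grey) and the 10 class I antigen processing genes (red, named). Dashed lines mark 2-fold, and B2m, at 0.89, is the red point nearest to the upper line.

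Psmb9, Tap1, Psmb8 and Tap2 follow one another in the gene order of the mouse reference, inside the class II region of the major histocompatibility complex. Their differences were 0.24, 0.05, 0.32 and 0.39. Of the 5 nearest measured genes on each side, 2 of 10 had a positive difference, and the median was -0.05 (range -0.28 to 0.29). H2-Oa, H2-DMa, H2-Ob, H2-Ab1, H2-Aa and H2-Eb1 among them also belong to the class II list below, so those values are counted in both places. H2-Oa, H2-Ob, H2-Ab1, H2-Aa and H2-Eb2 lay below the filter. The positive neighbours were Col11a2 at 0.18 and H2-Eb2 at 0.29. Around B2m, 8 of the 10 nearest measured genes had positive differences, with a median of 0.18, and B2m itself exceeded all 10. Of these neighbours, Golm2 (0.12), Ctdspl2 (-0.09) and Spg11 (-0.13) lay above the filter. All the others, the highest being Mageb3 at 0.61, lay below it. These neighbours were looked at after the values of the 10 genes were known.

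**Figure D4:**
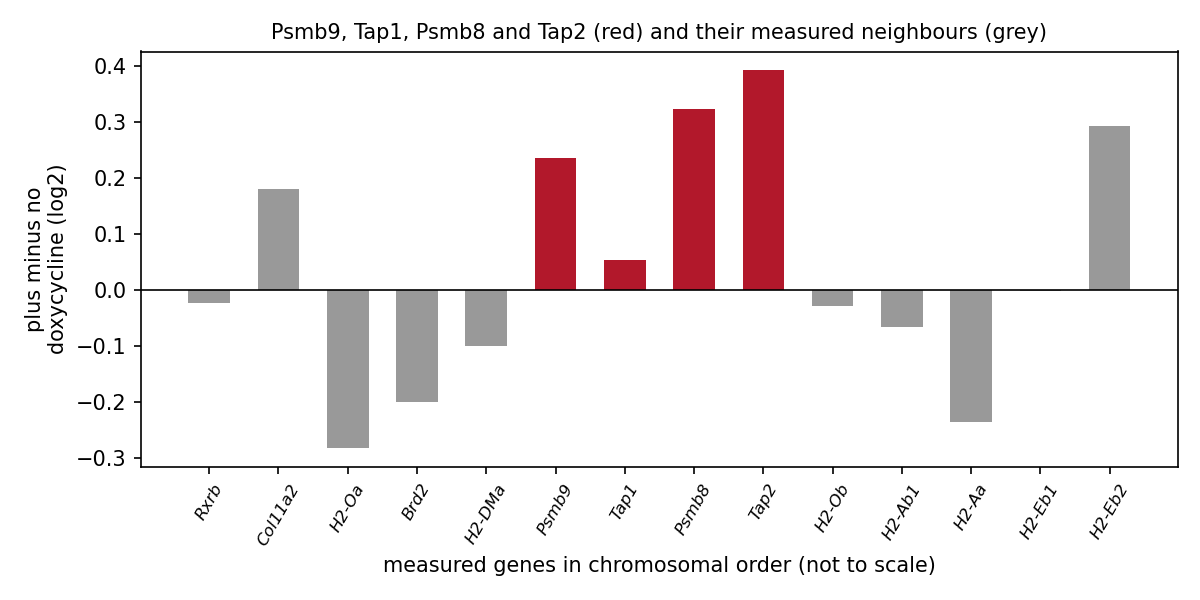
Difference of log2 RMA values, plus minus no doxycycline (vertical axis), for Psmb9, Tap1, Psmb8 and Tap2 (red) and the 5 nearest measured genes on each side (grey), in chromosomal order and not to scale. The 4 red bars lie between 0.05 and 0.39, and 8 of the 10 grey bars are below 0.

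The partners of B2m could be read only in part. Of 24 listed class I heavy chain genes, 12 had a probeset of their own, and H2-K1 and H2-D1, which encode the classical chains, were not among them. The 12 had a median difference of 0.01, which was -0.0087 after quantile normalization and -0.07 with the trend removed, and 0 were 2-fold different. Of these 12, 11 lay below the filter. H2-M5, the one above it, was at 6.98 in the doxycycline array and 7.26 in the untreated array, a difference of -0.27. H2-Bl had a difference of -0.27, H2-Q4 of -0.20, H2-M3 (which presents formylated peptides) of -0.16 and H2-M1 of -0.14. H2-M11 had 0.27, H2-T10 had 0.11, H2-T24 had 0.08 and H2-Q10 had 0.07, while H2-M9 had 0.04, H2-M2 had 0.02 and H2-Q2 had 0.01. Another 7 probesets were assigned to several genes with at least 1 heavy chain among them. Their values ran from 5.40 to 7.62 in the doxycycline array and from 5.53 to 7.61 in the untreated array, with differences from -0.27 to 0.50 and a median of 0.01. Heavy chain genes are close copies of one another and vary between strains, so each of these values is uncertain.

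Other proteins that pair with the B2m product were measured for 4 of 5 listed genes. Cd1d1, which presents lipids, was at 6.22 in the doxycycline array and 6.54 in the untreated array (difference -0.33). It passed the filter only through its value in the untreated array. Its close copy Cd1d2 had a difference of 0.47, Hfe, a regulator of iron uptake, 0.22 and Mr1, which presents vitamin B metabolites, 0.21. These last 3 lay below the filter. The 4 genes shared no direction.

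Folding and loading factors of the endoplasmic reticulum had a median difference of 0.13 over 13 genes, with 10 positive and 0 called. Bcap31, an export receptor for class I molecules, had the largest, at 10.64 in the doxycycline array and 10.14 in the untreated array (0.50, or 1.41-fold). Uggt1, which checks glycoprotein folding, had 0.33 and Pdia3, the disulfide partner of tapasin, 0.31. Genes of the unfolded protein response, a stress program that also acts on Calr, had a median of 0.03 over 13 genes with 0 called. Xbp1, its transcription factor, was at 9.15 in the doxycycline array and 9.96 in the untreated array (-0.81, or 1.75-fold lower), and Dnajc3 had -0.56 while Herpud1 had 0.53.

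Proteasome genes outside the immunoproteasome had small median differences, while single genes reached -0.46. The 14 core genes had a median difference of -0.04, with 5 positive, 9 negative and 0 called, and Psmb6 (-0.46), Psma7 (-0.24) and Psma5 (-0.21) differed most. Activators and assembly factors had a median of -0.02 over 9 genes, or 0.02 with the trend removed. Psme2 and Psme1, which form the interferon-inducible activator that opens the proteasome's gate, were at 7.97 and 8.55 in the doxycycline array and at 8.36 and 8.87 in the untreated array (-0.39 and -0.32). Psme4, another activator, had -0.30. Peptidases that trim or destroy peptides had a median of -0.03 over 10 genes, or 0.0096 with the trend removed, and Lap3 (0.29), Npepps (-0.28) and Ide (-0.18) differed most.

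Genes that act upstream of the class I pathway were read next. Interferon receptor and signalling genes had a median of -0.19 over 13 genes, with 10 negative and 0 called. Ifngr1 and Ifngr2, the chains of the interferon-gamma receptor, were at 6.73 and 7.50 in the doxycycline array and at 7.40 and 7.90 in the untreated array. Their differences were -0.67 and -0.41, and that of Irf9, an interferon response transcription factor, was -0.27. Transcriptional regulators of class I genes had a median of -0.07 over 15 genes, with 11 negative and 0 called. The median was -0.13 by the brightest probeset of each gene and -0.02 with the trend removed. Of the 12 above the filter, those that differed most were Atf1 (-0.35), Nfyb (-0.32) and Rfx5 (-0.32), which belong to the complex that binds class I and B2m promoters with Nlrc5 or to its relatives. Irf2, below the filter, had 0.43.

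Interferon-stimulated genes had a median of 0.04 over 22 genes, and 16 of them lay below the filter. The median was -0.16 over the 6 above it. Of these 6, Xaf1, a cell death regulator, was called higher, at 7.43 in the doxycycline array and 6.35 in the untreated array (1.08, or 2.12-fold), and it passed the filter only through its value in the doxycycline array. Parp9, which passed only through its value in the untreated array, had -0.80 and Ifitm3, a membrane antiviral factor, -0.52. The 7 measured class II pathway genes had a median of -0.10, all 7 differences were negative and 0 were called. H2-DMa (-0.10) and H2-Eb1 (-0.0016) were the 2 above the filter, H2-DMa only through its value in the untreated array. Of the NKG2D ligands, which activate natural killer cells, 2 of 9 listed genes had a probeset of their own, H60b at 0.63 and Raet1d at -0.29. Both belong to families of close copies, so their values are uncertain.

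**Figure D5:**
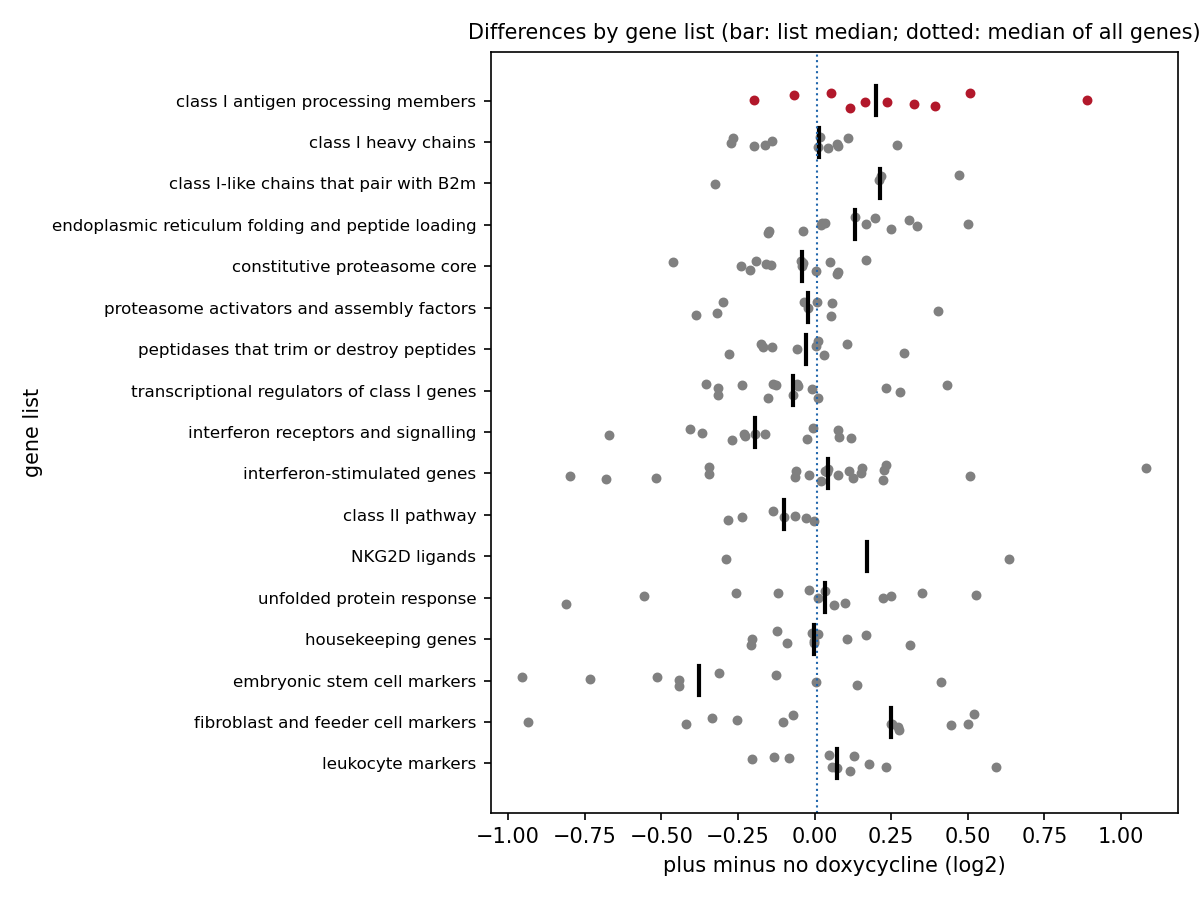
Differences of log2 RMA values, plus minus no doxycycline (horizontal axis), 1 point per measured gene in each of 17 gene lists (rows), with a black bar at the list median and a dotted line at the median of all genes (0.0083). The class I antigen processing genes (red) have their median at 0.20, interferon receptors and signalling theirs at -0.19 and the heavy chains at 0.01.

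The label of the cells and the markers of other cell types were examined beside these values. All 10 embryonic stem cell markers lay above the filter in the doxycycline array and in the untreated array, with a median difference of -0.38. Utf1 (-0.95), Tdgf1 (-0.73) and Dppa5a (-0.52) differed most. Pou5f1, the gene of Oct4 and so of an induced factor, was at 12.46 in the doxycycline array and 12.05 in the untreated array. Whether its probeset also reads the transgene was not tested. Fibroblast and feeder cell markers, of cells that carry more class I than stem cells do, had 7 of 13 positive differences and a median of 0.25. The median was -0.07 over the 9 above the filter. Over all 13 it was 0.0657 when 32 was added to the linear values. Tgfbi had -0.94, Fbln2 0.52 and Col1a2 0.50, while Lum, Dcn, Postn and S100a4 were below the filter. The linear sum over the 13 was 5707 in the doxycycline array and 6565 in the untreated array, and without Fn1, the brightest, it was 2626 with doxycycline and 2684 without it.

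Leukocyte markers had 8 of 11 positive differences, a median of 0.07 that was -0.01 with the trend removed, and 8 members below the filter, Ptprc among them. Their linear sum was 1955 in the doxycycline array and 1490 in the untreated array, and Laptm5, at 10.45 with doxycycline and 9.86 without it (difference 0.59), made up 71.5% of the doxycycline array's sum. Without Laptm5 the sums were 556.6 with doxycycline and 561.5 without it. Cd3e had 0.23 and Cd68 -0.20. The part of any other cell type in the B2m difference was not tested. In bulk RNA, fewer cells of a type and less RNA per cell cannot be told apart. The 11 housekeeping genes, B2m not counted, had 4 positive and 7 negative differences. Their median difference was -0.0033, with Ywhaz at 0.31, Polr2a at -0.21 and Pgk1 at -0.20.

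The genes most like B2m were taken as the 5 with the smallest Euclidean distance in the 2 log2 values, over 2 arrays. They were Bmp4, a ligand of the BMP pathway (10.18 with doxycycline, 9.26 without), the transcription factor gene Klf10 (10.11 with doxycycline, 9.30 without), the small GTPase gene Rras (10.09 with doxycycline, 9.34 without), the basement membrane gene Nid1 (10.22 with doxycycline, 9.35 without) and the transcriptional repressor gene Klf3 (10.20 with doxycycline, 9.13 without). Their distances ran from 0.047 for Bmp4 to 0.14 for Klf3. Klf3, at 2.10-fold, was the one of the 5 above 2-fold. With 2 arrays this likeness says only that the signals are of like size in each.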

How the data were processed

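Expression was measured on 2 oligonucleotide arrays, 1 per group. The deposited table holds log2 values made by the authors, who used Affymetrix Expression Console and RMA, per the submitters' processing notes; versions and genome build were not given in the sources used here, and the table has no detection calls. Values ran from 2.49 to 14.2 in both arrays (median 6.49 with doxycycline and 6.47 without). RMA equalises the arrays, so it hides a shift common to most transcripts, and it compresses differences of dim transcripts. The arrays correlated across genes with r = 0.989, where genes are not independent replicates.

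Of the 35556 probesets, 21789 had 1 gene in the platform annotation, 1621 had several and 12146 were not listed. Probesets with a single gene were averaged to give that gene's value. All 10 symbols matched the RefSeq table through their gene identifiers. The untreated array's log2 value was subtracted from that of the doxycycline array, with a call at 2-fold where the higher value reached the table's median. No test is possible with 1 array per group. The steps were tested on simulated data.

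The members and gene lists were chosen with earlier results of these data known. Genes were named by a rule: the 10 members, all measured heavy chains and class I-like partners, the 3 constitutive catalytic subunits, the 3 largest differences above the filter in each other list, and the 5 genes nearest to B2m. Genes named outside that rule (the neighbours, Pou5f1, Ptprc, Irf2, Fn1 and the fibroblast markers below the filter) were chosen after their values were seen. Alternatives were the brightest probeset, quantile normalization, a loess trend on mean level removed, median centring, an offset of 32, other filters and a 1.5-fold threshold. Work was done in Python 3.11.15 with pandas 2.3.3 and NumPy 2.4.6, loess in statsmodels 0.14.6 and plots in matplotlib 3.10.9.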

Additional observations from a re-analysis of the deposited data

How the results depend on the processing

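Of 153 values recomputed under 8 alternatives, 151 kept their side of the 2-fold rule or moved by less than 0.17, the SD between probesets of a gene. The exceptions were the count of members called higher, which was 1 (B2m) with a 1.5-fold threshold, and the median of the fibroblast and feeder cell markers, which was 0.0657 with an offset of 32. The difference of B2m ran from 0.85 to 0.92, that of Tapbp from 0.44 to 0.58 and that of Tap2 from 0.29 to 0.43. The median over all 10 members ran from 0.15 with an offset of 32 to 0.23 with median centring. It was 0.24 over the 7 members above the filter, and 0.12 over those above a filter at the 75th percentile. Psmb10 lay between -0.07 and 0.0071, so it has no settled sign. No paired analysis was possible because each group has 1 array and the groups share 1 replicate number. Dim genes such as Erap1, Psmb8, most Nlrc5 probesets and most heavy chains cannot be told from background, which limits what their differences show.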
